A study of Mus musculus with 15 samples.

Results

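The mitochondrial ribosomal protein genes were taken as every row of the deposited tables whose symbol begins with Mrpl or Mrps and a digit, without pseudogene symbols ending in -ps, and with a mean of at least 5 CPM (a gene's counts scaled to a common total per cell) in at least 2 libraries. Of the 23154 genes in the tables, 77 match the symbol rule, 48 with an Mrpl and 29 with an Mrps symbol, and all 77 passed the minimum. By their place in the mammalian mitochondrial ribosome, 50 belong to the large subunit and 26 to the small subunit; Mrps30 and Mrps18a were counted with the large subunit. The remaining one, Mrps36, carries the family's name but is now known as a part of the 2-oxoglutarate dehydrogenase complex. The members lie on 17 chromosomes, with at most 10 on one chromosome and 0 on X.

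The mitochondrial ribosome is a second ribosome that works inside the mitochondrion and translates the few messenger RNAs of the mitochondrial genome, all of which encode subunits of the respiratory chain and of ATP synthase. Its ribosomal RNAs come from the mitochondrial genome, whereas all of its proteins are encoded in the nucleus, made in the cytosol and imported, some having bacterial counterparts and others found only in mitochondria. The heart becomes one of the tissues richest in mitochondria, and embryos or hearts that lack single proteins of this machinery are known to develop poorly.

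RNA was measured in single cells of mouse embryonic hearts that carry Isl1Cre or Nkx2-5Cre, each together with Rosa26tdTomato, a red fluorescent reporter that Cre switches on for good in a cell and all its progeny. Isl1 marks progenitors of the second heart field, and Nkx2-5 marks heart progenitors and heart muscle. The groups are Isl1Cre; Rosa26tdTomato hearts and Nkx2-5Cre; Rosa26tdTomato hearts, each taken on embryonic day E7.75, on E8.25, on E8.75 and on E9.25. Each group has 2 libraries, save Isl1Cre at E9.25 with 1, which makes 15 libraries. The letters I and N in the titles were read as these lines, and the labels allow either sorted or merely dissociated cells, without saying which library had which. In every group of 2, the titles repeat 1 embryo number, and its libraries may thus stem from 1 embryo: p-values measure the spread between such libraries, which may be technical, and a lineage or a stage cannot be told apart from a single embryo.

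Of 1400 cells, 1332 were kept, 594 of Isl1Cre and 738 of Nkx2-5Cre, with 8165519 to 38321215 counts per library. The summed level of 12 cardiomyocyte markers was low at E7.75, at 7171 and 8141 CPM in Isl1Cre and 16611 and 15161 CPM in Nkx2-5Cre, and lay between 25234 and 51476 CPM in the libraries of later stages. Cardiomyocyte-like cells numbered 1 and 1 at E7.75 in Isl1Cre and 0 and 9 in Nkx2-5Cre, against 54 to 89 in each later library, so a change over stages is also a change in the cells sampled. Blood markers summed to 219 CPM in the Isl1Cre library and 7.46 and 21.8 CPM in the Nkx2-5Cre libraries of E9.25, and to 1409 and 1176 CPM in the Nkx2-5Cre libraries of E8.75, against at most 1.101 CPM elsewhere. Levels are given as a library's mean CPM over its kept cells. Changes are log2 differences ± SE of log2(mean CPM + 1), with p-values from limma adjusted by Benjamini-Hochberg over all 10665 genes tested, and a gene is called where the adjusted p is under 0.05. A CPM value is a share of a cell's counts and gives no amount per cell.

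The window around the annotated start site is shown for the members on which the comparisons below turn, those called in the average over stages between lineages or in the slopes of both lineages. A RefSeq promoter window (GRCm38.p6, 250 bases before to 50 after the start site) was found for 68 of the 77 members; Mrpl13 is named only. The stretch from 100 bases before to 25 after the start site is printed 5′ to 3′ on the gene's strand, with motif matches on either strand in capitals. The letters searched were AAGATGGC for YY1, the palindromic core of NRF1, and the TATA box in its common form TATAAA. For the ETS family, which includes GABP, a regulator of nuclear genes of mitochondria, the letters were CCGGAAG.
Mrpl36: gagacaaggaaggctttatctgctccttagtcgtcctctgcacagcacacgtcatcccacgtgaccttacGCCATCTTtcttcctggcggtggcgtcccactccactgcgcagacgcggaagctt
Mrpl33: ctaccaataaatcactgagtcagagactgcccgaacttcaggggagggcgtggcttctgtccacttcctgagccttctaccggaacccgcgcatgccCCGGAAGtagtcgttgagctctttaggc
Mrpl20: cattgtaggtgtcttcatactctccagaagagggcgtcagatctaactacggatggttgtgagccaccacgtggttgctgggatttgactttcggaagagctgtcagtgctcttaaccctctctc
Mrpl52: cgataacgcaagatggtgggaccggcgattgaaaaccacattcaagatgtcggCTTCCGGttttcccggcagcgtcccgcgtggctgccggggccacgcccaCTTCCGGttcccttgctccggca
Mrps12: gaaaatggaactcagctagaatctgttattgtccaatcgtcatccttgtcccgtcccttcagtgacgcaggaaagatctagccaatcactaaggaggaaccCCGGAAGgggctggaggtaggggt
Mrps23: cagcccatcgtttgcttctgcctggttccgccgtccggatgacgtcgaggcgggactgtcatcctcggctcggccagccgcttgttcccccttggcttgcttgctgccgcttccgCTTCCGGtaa
These stretches lie at chr13:73330909-73331033 (plus strand) for Mrpl36, chr5:31613851-31613975 (plus) for Mrpl33, chr4:155802778-155802902 (plus) for Mrpl20, chr14:54426809-54426933 (plus) for Mrpl52, chr7:28741797-28741921 (minus) for Mrps12 and chr11:88204288-88204412 (plus) for Mrps23. For Mrpl36 and Mrpl33 the RefSeq start site lies inside the gene as GENCODE draws it. The ETS family letters stood in the stretches of Mrpl33, Mrps12 and Mrps23 and at 2 places in that of Mrpl52. The YY1 letters stood in that of Mrpl36, and the stretch of Mrpl20 held none of the 4. Over the whole windows, the ETS family letters were in 25 of 68 members (36.8%), in 21.5% of the 8200 tested genes with a window and in 9.93% of all 27025 windows. The YY1 letters were in 12 of 68 members (17.6%), 5.74% of the tested genes and 3.19% of all windows. The NRF1 letters were in 3 members (4.41%), 2.54% of the tested genes and 1.07% of all windows, and the TATA box letters in 5 members (7.35%), 8.52% and 15.7%. For comparison, the ETS family letters were in 7 of the 20 windows of nuclear subunits of complexes IV and V. A match is a description of these letters and not of binding.

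The members together took a nearly constant share of the messenger RNA at every stage and in both lineages. Their summed level in Isl1Cre libraries was 10162 and 10221 CPM at E7.75, 10501 and 10585 CPM at E8.25, 10911 and 10847 CPM at E8.75, and 10802 CPM at E9.25. In Nkx2-5Cre libraries it was 11105 and 10747 CPM at E7.75, 11825 and 10596 CPM at E8.25, 10685 and 10921 CPM at E8.75, and 11634 and 10962 CPM at E9.25. Both Isl1Cre libraries of E7.75 and E8.25 lay below both Nkx2-5Cre libraries of the stage, although at E8.25 the nearest libraries were close (10585 CPM in Isl1Cre and 10596 CPM in Nkx2-5Cre). At E8.75 the lineages overlapped, and the 1 Isl1Cre library of E9.25 lay below both Nkx2-5Cre libraries. The E9.25 mean was 1.06 times the E7.75 mean in Isl1Cre and 1.03 times in Nkx2-5Cre, and the highest of the 8 group means was 1.11 times the lowest. Averaged over stages, Isl1Cre was lower than Nkx2-5Cre by 456 CPM. The pooled SD between libraries of a group was 393 CPM, which is the spread of single libraries and not the error of this difference. In groups of 2 libraries the SD was 41.7 to 59.6 CPM in Isl1Cre and 167 to 869 CPM in Nkx2-5Cre, largest at E8.25. Depth differed as well: at E7.75 the median counts per kept cell were 105339 and 127704 in Isl1Cre and 360929 and 203581 in Nkx2-5Cre. The later libraries had medians of 92068 to 185456. Cells with more counts had a higher summed level, as given below, and the part of depth in the lineage difference was not tested.

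Among the nuclear partners of the proteins that this ribosome makes, the subunits of complexes IV and V were examined, and their summed level was higher at later stages. The 24 nuclear subunits of complex IV (cytochrome oxidase) and complex V (ATP synthase) summed to 18770 and 18805 CPM at E7.75 and 31889 CPM at E9.25 in Isl1Cre, and to 21642 and 22055 CPM at E7.75 and 32044 and 30912 CPM at E9.25 in Nkx2-5Cre. The E9.25 libraries lay above the E7.75 libraries in both lineages, by 1.70 times in Isl1Cre and 1.44 times in Nkx2-5Cre on the means. The summed RNA level of the large subunit members was 2.10 to 2.45 times that of the small subunit members over the libraries. Proteins and assembled ribosomes were not measured. In cardiomyocyte-like cells alone, in the libraries with at least 10 of them, the members summed to 10356 and 10598, 10948 and 10880, and 10826 CPM at the 3 later stages in Isl1Cre, and to 12052 and 10797, 10707 and 10993, and 11821 and 11210 CPM in Nkx2-5Cre.

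**Figure D1:**
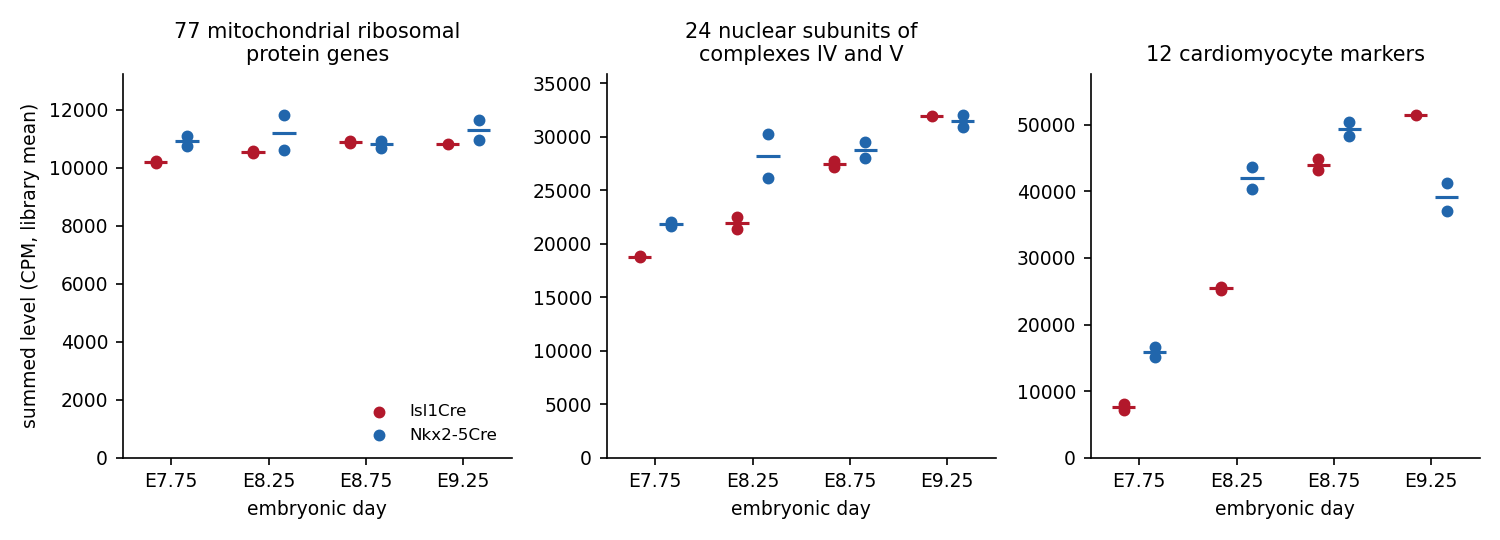
Summed level in CPM (library mean over kept cells) of the 77 members, of 24 nuclear subunits of complexes IV and V, and of 12 cardiomyocyte markers, by embryonic day; each point is a library, Isl1Cre left and Nkx2-5Cre right, and bars are group means. The members stay between 10162 and 11825 CPM, whereas the complex IV and V subunits in Isl1Cre reach 31889 CPM at E9.25, against 18770 and 18805 CPM at E7.75.

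Single members also varied little over the 8 groups. The highest group mean of a member was a median of 1.48 times its lowest, against 2.16 times over all tested genes whose mean level lies in the members' range. The ratio was under 1.5 for 41 members (53.2%, against 10.4% of those genes) and under 2 for 71. Because low genes vary more, the comparison was also made by level. Below 50 CPM, where 5278 of the 7950 genes of the range lie, the medians were 1.69 for 10 members and 2.36 for all genes. Among genes of 50 to 100 CPM they were 1.45 for 21 members and 1.88 for all genes. Among those of 100 to 200 CPM they were 1.44 for 30 members and 1.78 for all genes. The gap was narrowest above 200 CPM, at 1.46 for 16 members and 1.71 for all genes. The steadiest were Mrpl23, a protein near the exit of the peptide tunnel, at 1.20 times, and Mrpl12, the stalk protein to which translation factors bind, also at 1.20 times; the widest were Mrps27 (3.18 times) and Mrpl24 (2.94 times), both at low levels, and Mrpl36 (2.80 times), at a high one.

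The 5 members with the highest mean over the 15 libraries were all of the large subunit: Mrpl18 at 439 CPM, Mrpl12 at 379 CPM, Mrpl36 at 318 CPM, Mrpl42 at 314 CPM and Mrpl23 at 291 CPM. Mrpl18, a large subunit protein known from human cells to bind 5S ribosomal RNA, lay between 345 and 489.9 CPM in the Isl1Cre libraries and between 403 and 518 CPM in the Nkx2-5Cre libraries. The 5 lowest were Mrpl24 at 7.61 CPM, Mrps2 at 14.0 CPM, Mrps27 at 20.3 CPM, Mrpl37 at 31.7 CPM and Mrpl10, at the base of the stalk, at 34.3 CPM. The libraries hold 3′ ends, so CPM does not grow with transcript length as whole-transcript counts do. Divided by annotated exon length, the levels ran from 3.37 CPM per kb for Mrpl24 to 352 CPM per kb for Mrpl54, with 314 CPM per kb for Mrpl18 and 59.6 CPM per kb for Mrpl23. These values per kb are a description only, and for 3′ ends they do not rank the members by level. Exons of 32 members overlap those of another annotated gene, and the sources used here do not say whether counting used strand, so their reads cannot be told apart from those of the neighbour; of the members called in a comparison this touches Mrpl13, Mrpl19, Mrpl33, Mrpl36, Mrpl53, Mrps6 and Mrps18b.

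**Figure D2:**
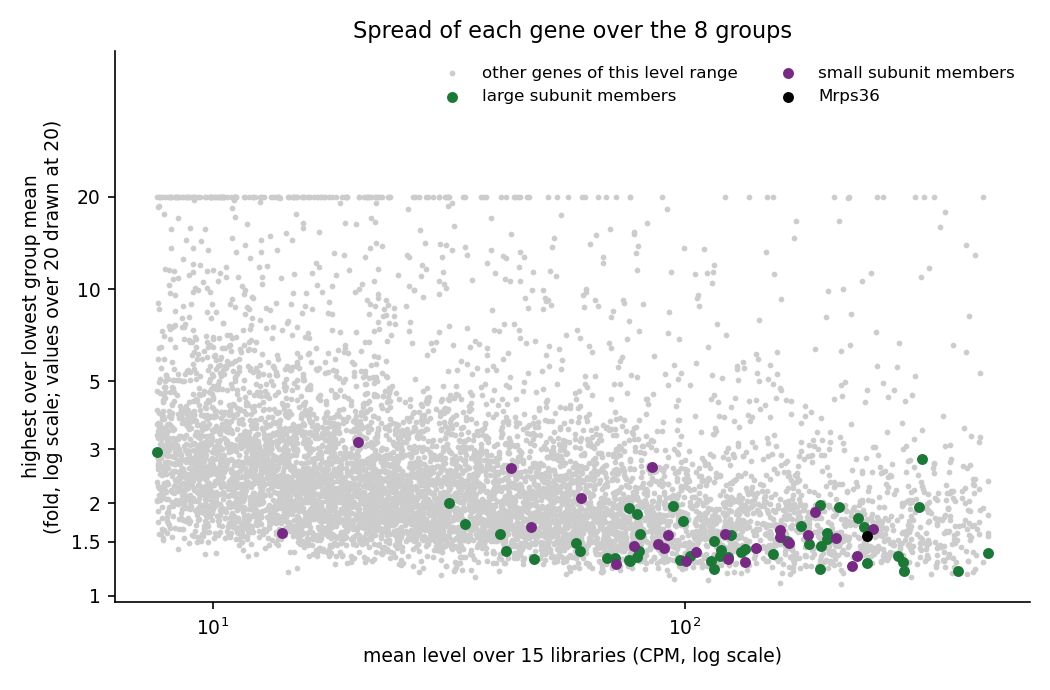
Highest over lowest of the 8 group means (fold, log scale) against mean CPM over the 15 libraries (log scale), for members of the large subunit, of the small subunit and Mrps36, over the other tested genes of the same level range in grey. Most members lie in the lower part of the cloud, with a median of 1.48 against 2.16 for all genes of that range.

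Between the lineages, 2 members were higher and 2 lower in Isl1Cre in the average over the 4 stages, where 3.68% of all genes tested were higher and 3.68% lower (7.35% in either direction). That share of 77 genes is close to the count found. The median over the 77 members was -0.02, against -0.01 over all genes, and the median size of the difference was 0.10, against 0.19. Both lower members were small subunit proteins, Mrps12 and Mrps23, and both higher ones were of the large subunit, Mrpl13 and Mrpl52.

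Mrps12 (chr7:28739641-28741820), the protein of the small subunit that lines the decoding centre, had 151 and 138 CPM at E7.75, 149 and 175 CPM at E8.25, 125 and 152 CPM at E8.75 and 135 CPM at E9.25 in Isl1Cre. In Nkx2-5Cre it had 262 and 245 CPM, 223 and 218 CPM, 234 and 237 CPM, and 200.8 and 190.6 CPM at the same stages. Every Isl1Cre library lay below every Nkx2-5Cre library, at all stages. The average difference was -0.61 ± 0.08 (limma adjusted p = 0.000131). It was called with each of the 15 libraries left out in turn, in cardiomyocyte-like cells alone (-0.58) and without the E7.75 libraries. Averaging the libraries of a group to one unit, so that 8 values remained, gave an adjusted p of 0.255.

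Mrps23 (chr11:88204388-88211507), a small subunit protein found only in mitochondria, had 42.9 and 45.4 CPM at E7.75, 82.2 and 80.4 CPM at E8.25, 89.5 and 73.3 CPM at E8.75 and 64.1 CPM at E9.25 in Isl1Cre. Nkx2-5Cre libraries had 85.1 and 102 CPM, 115 and 117 CPM, 104 and 77.1 CPM, and 89.5 and 112 CPM at the same stages. The lineages did not overlap at E7.75, E8.25 and E9.25 and overlapped at E8.75. The average difference was -0.56 ± 0.10 (adjusted p = 0.0029), and was not called in cardiomyocyte-like cells alone (adjusted p = 0.114) or without the E7.75 libraries (adjusted p = 0.0939).

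Mrpl52 (chr14:54426909-54429756), a mitochondria-specific protein of the large subunit, had 278 and 238 CPM at E7.75, 205 and 251 CPM at E8.25, 294 and 292 CPM at E8.75 and 278 CPM at E9.25 in Isl1Cre. Levels in Nkx2-5Cre were 307 and 277 CPM, 243 and 185 CPM, 167 and 183 CPM, and 205 and 192 CPM at the same stages. The lineages overlapped at the first stages and stood apart at E8.75 and E9.25, with Isl1Cre higher. The average difference was 0.31 ± 0.08 (adjusted p = 0.0298).

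Mrpl13 (chr15:55534094-55557748), a large subunit protein that helps early assembly in bacteria, had 254 and 262 CPM at E7.75, 242 and 251 CPM at E8.25, 185 and 159 CPM at E8.75 and 215 CPM at E9.25 in Isl1Cre. The Nkx2-5Cre libraries gave 191 and 216 CPM, 189.6 and 179 CPM, 144 and 189 CPM, and 185 and 136 CPM at those stages. Isl1Cre lay above Nkx2-5Cre without overlap at every stage but E8.75. The average difference was 0.34 ± 0.09 (adjusted p = 0.0355). For Mrpl52 and Mrpl13, neither call held against the libraries left out in turn: the adjusted p reached 0.134 for Mrpl52, which lost its call without 6 of the 15 libraries, and 0.0998 for Mrpl13, which lost it without 9, both highest without the Isl1Cre E9.25 library. Neither was called by edgeR on the recovered counts (0.0609 and 0.0556) or in cardiomyocyte-like cells alone (0.0641 and 0.185).

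At single stages 0 members were higher in Isl1Cre, and few were lower. At E7.75, 3 were lower and 0 higher, where 3.8% of all genes were lower and 3.33% higher (7.13% in either direction): Mrps23 (-1.02 ± 0.20, adjusted p = 0.0031), Mrps12 (-0.76 ± 0.15, adjusted p = 0.0034) and Mrpl4. Mrpl4, a large subunit protein at the wall of the peptide tunnel, had 57.6 and 61.3 CPM in Isl1Cre and 117 and 103 CPM in Nkx2-5Cre at this stage. Its difference was -0.83 ± 0.21 (adjusted p = 0.0174), and the adjusted p rose to 0.0644 to 0.122 without any one of the 4 libraries of the stage and to 0.147 with edgeR. The calls of Mrps12 and Mrps23 at E7.75 each ended without 1 library, at an adjusted p of 0.0529 without Isl1Cre E7.75 replicate 2 for Mrps12 and of 0.0529 without Nkx2-5Cre E7.75 replicate 2 for Mrps23. Cardiomyocyte markers were also lower in Isl1Cre at this stage, as given above, and their part in these differences was not tested.

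At E8.25, 2 members were lower and 0 higher in Isl1Cre, where 2.61% of all genes were lower and 2.5% higher (5.11% in either direction). Mrpl42, a mitochondria-specific large subunit protein, had 240.3 and 229 CPM in Isl1Cre and 401 and 328 CPM in Nkx2-5Cre (-0.66 ± 0.16, adjusted p = 0.0208). Mrpl36, a small zinc-binding protein of the large subunit, had 291 and 276 CPM in Isl1Cre and 528 and 351 CPM in Nkx2-5Cre (-0.63 ± 0.17, adjusted p = 0.0336). Both ended without either Isl1Cre library of the stage or without Nkx2-5Cre E8.25 replicate 1, where the adjusted p reached 0.181 for Mrpl42 and 0.348 for Mrpl36. In cardiomyocyte-like cells alone, Mrpl42 kept its call at E8.25 and Mrpl36 lost it (-0.55, limma adjusted p = 0.112). The summed cardiomyocyte markers of the E8.25 libraries were 25687 and 25234 CPM in Isl1Cre and 43705 and 40266 CPM in Nkx2-5Cre, and their part was not tested. At this stage 14 of the 24 complex IV and V subunits were lower and 0 higher in Isl1Cre, among them Cox8a (-0.70 ± 0.10, adjusted p = 0.000532) and Cox5a (-0.63 ± 0.11, adjusted p = 0.0019).

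At E8.75, 1 member was lower and 0 higher in Isl1Cre, where 0.0938% of all genes were lower and 0.225% higher (0.319% in either direction). It was again Mrps12 (-0.76 ± 0.15, adjusted p = 0.0283), with a call that ended without Isl1Cre E8.75 replicate 1, without either Nkx2-5Cre library of the stage or without Nkx2-5Cre E9.25 replicate 1 (adjusted p 0.0503 to 0.144). At E9.25, limma called 0 members in either direction, where 0.422% of all genes were higher and 0.553% lower (0.975% in either direction). An unadjusted p under 0.05 was found for 9 of the 77 members and for 1340 of the 10665 genes tested. By edgeR 0 members were called, beside 34 of all genes, and by DESeq2 1 member, beside 232 of all genes.

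**Figure D3:**
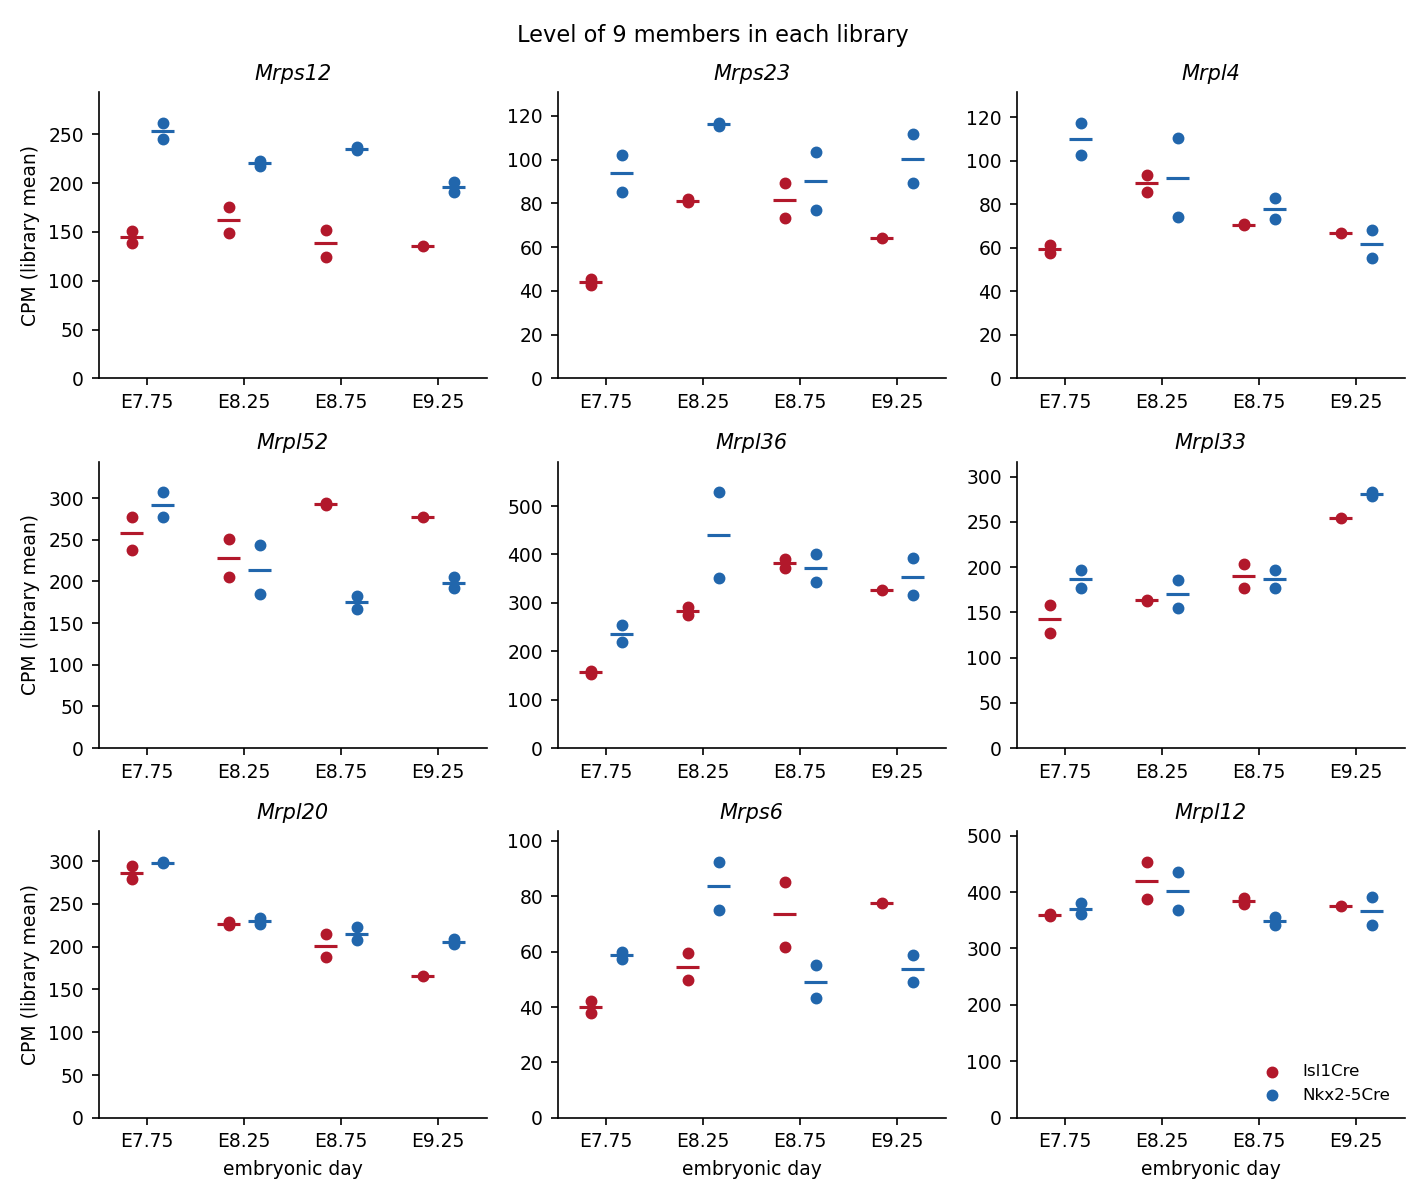
Level in CPM (library mean over kept cells) of 9 members by embryonic day; each point is a library, Isl1Cre left and Nkx2-5Cre right, and bars are group means. Mrps12 lies lower in every Isl1Cre library than in every Nkx2-5Cre library, Mrpl36 and Mrpl33 are lowest at E7.75 in Isl1Cre, Mrpl20 is highest at E7.75 in both lineages, and Mrpl12 is shown as a steady member.

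Over the stages, 8 members rose and 2 fell in Isl1Cre by the slope of a straight line per day, where 13% of all genes tested rose and 10.2% fell (23.2% in either direction). In Nkx2-5Cre, 6 rose and 4 fell, where 13.2% of all genes rose and 11.6% fell (24.7% in either direction). The median slope of the 77 members was 0.07 in Isl1Cre and 0.00 in Nkx2-5Cre, against -0.01 over all genes in both, and the median size of the slope was 0.15 in Isl1Cre and 0.13 in Nkx2-5Cre, against 0.36 and 0.32. Called in neither lineage were 60 members, and called in both were 3: Mrpl36 and Mrpl33 rose and Mrpl20 fell in each. The shares of all genes called in neither lineage or in both were not counted. All 3 are of the large subunit, as are 50 of the 77 members.

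Mrpl36 (chr13:73328513-73332178) had 154 and 160.1 CPM at E7.75, 291 and 276 CPM at E8.25, 372 and 390.2 CPM at E8.75 and 326 CPM at E9.25 in Isl1Cre. In Nkx2-5Cre it had 255 and 219 CPM, 528 and 351 CPM, 400.1 and 344 CPM, and 392 and 315 CPM at the same stages. In both lineages the E7.75 libraries were the lowest, and the later stages overlapped in Nkx2-5Cre. The slope was 0.74 ± 0.13 per day in Isl1Cre (adjusted p = 0.000265) and 0.30 ± 0.11 in Nkx2-5Cre (adjusted p = 0.0433). The Isl1Cre slope was 0.11 in cardiomyocyte-like cells alone (adjusted p = 0.834) and 0.30 without the E7.75 libraries (adjusted p = 0.441), neither called, and 1.24 without the Isl1Cre E9.25 library. The Nkx2-5Cre slope was lost without 12 of the 15 libraries (adjusted p up to 0.298, without Nkx2-5Cre E9.25 replicate 1), and without the E7.75 libraries it was -0.29 (adjusted p = 0.547), and in cardiomyocyte-like cells alone -0.25 (adjusted p = 0.645). Exons of Mrpl36 overlap those of Ndufs6, a complex I subunit gene on the opposite strand with a mean of 595 CPM. Ndufs6 moved the same way in the same comparisons, with slopes of 0.47 ± 0.09 in Isl1Cre and 0.34 ± 0.08 in Nkx2-5Cre and a difference of -0.60 ± 0.12 at E8.25, and reads of the pair cannot be told apart here.

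Mrpl33 (chr5:31596935-31664384), a small protein of the large subunit, had 158 and 127 CPM at E7.75, 163 and 163 CPM at E8.25, 177 and 203 CPM at E8.75 and 254 CPM at E9.25 in Isl1Cre. In Nkx2-5Cre the levels were 197 and 177 CPM, 186 and 154 CPM, 177 and 197 CPM, and 283 and 279 CPM at the same stages. The E9.25 libraries stood above all earlier ones in each lineage. The slope was 0.58 ± 0.12 in Isl1Cre (adjusted p = 0.0016) and 0.38 ± 0.10 in Nkx2-5Cre (adjusted p = 0.0092), with an adjusted p of 0.081 without the Isl1Cre E9.25 library and of 0.0506 to 0.0584 without Nkx2-5Cre E7.75 replicate 2 or either Nkx2-5Cre E9.25 library. Of the 10 members called over stages in Nkx2-5Cre it was the 1 also called in cardiomyocyte-like cells alone. The Isl1Cre slope of Mrpl33 was not called in those cells (0.61, limma adjusted p = 0.105).

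Mrpl20 (chr4:155802878-155809975), needed for assembly of the large subunit in bacteria, had 294 and 279 CPM at E7.75, 229 and 225 CPM at E8.25, 214 and 188 CPM at E8.75 and 166 CPM at E9.25 in Isl1Cre. Nkx2-5Cre libraries had 299 and 298 CPM, 234 and 226 CPM, 223 and 207 CPM, and 203 and 208 CPM at the same stages. In both lineages the E7.75 libraries were the highest and did not overlap with later ones. The slope was -0.48 ± 0.10 in Isl1Cre (adjusted p = 0.0016) and -0.34 ± 0.08 in Nkx2-5Cre (adjusted p = 0.0057). Both calls held with each library left out in turn, and neither held in cardiomyocyte-like cells alone (adjusted p 0.445 and 0.618) or without the E7.75 libraries (0.246 and 0.71).

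The other members called in Isl1Cre were 4 of the ribosome's large subunit, 2 of its small subunit and Mrps36. Mrpl42 rose by 0.58 ± 0.12 (adjusted p = 0.0017), with 262 and 272 CPM at E7.75 and 456 CPM at E9.25. Mrpl16, which contacts transfer RNA in the large subunit, rose by 0.57 ± 0.15 (adjusted p = 0.0100), with 64.1 and 55.2 CPM at E7.75 and 115 CPM at E9.25. Mrpl17, near the tunnel exit, fell by 0.56 on the log2 scale per day (SE 0.12, adjusted p = 0.0016), with 271 and 245 CPM at E7.75 and 132 CPM at E9.25. Without the single Isl1Cre library of E9.25 these 3 slopes were 0.24 for Mrpl42 (adjusted p = 0.302), 0.26 for Mrpl16 (adjusted p = 0.369) and -0.21 for Mrpl17 (adjusted p = 0.336). Mrps36 had 200.9 and 175 CPM at E7.75 and 279 CPM at E9.25 (0.47 ± 0.13, adjusted p = 0.0105), Mrps28 had 104 and 125 CPM and 160.3 CPM (0.39 ± 0.12, adjusted p = 0.0255), and Mrpl53 had 147 and 175 CPM and 227 CPM (0.34 ± 0.11, adjusted p = 0.0363). For all 3, which were picked by a slope over these same libraries, the E9.25 library was above both E7.75 libraries. Without it all 3 calls were lost, with slopes of 0.43 for Mrps36 (adjusted p = 0.061), 0.34 for Mrps28 (adjusted p = 0.118) and 0.04 for Mrpl53 (adjusted p = 0.866). The slope of Mrpl53 was also not called with the replicate number as a block (adjusted p = 0.0539) or with no further scaling (adjusted p = 0.0617).

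The other members called in Nkx2-5Cre were 4 that rose and 3 that fell. Mrpl19 rose by 0.44 ± 0.11 (adjusted p = 0.0087), with 69.0 and 72.8 CPM at E7.75 and 137 and 111 CPM at E9.25. Mrpl34 had 154 and 149 CPM at E7.75 and 217 and 208 CPM at E9.25, Mrps14 had 222 and 196 CPM and 256 and 292 CPM, and Mrps33 had 258 and 212 CPM and 290.1 and 331 CPM. Mrpl34 (0.27 ± 0.09), Mrps14 (0.25 ± 0.09) and Mrps33 (0.25 ± 0.08) rose with adjusted p-values of 0.0394, 0.0438 and 0.0363, each lost without at least 10 of the 15 libraries. Mrps18b, a small subunit protein, fell by 0.75 on the log2 scale per day (SE 0.19, adjusted p = 0.0087), with 64.2 and 59.5 CPM at E7.75 and 31.6 and 31.5 CPM at E9.25. Mrpl4 fell by 0.54 (SE 0.13, adjusted p = 0.0053), with 117 and 103 CPM at E7.75 and 68.2 and 55.1 CPM at E9.25. Mrpl52 fell by 0.39 (SE 0.10, adjusted p = 0.0091), with 307 and 277 CPM at E7.75 and 205 and 192 CPM at E9.25. In Nkx2-5Cre, E7.75 and E9.25 did not overlap for any of these 7 members. They were picked by a slope over these same libraries, so this describes the calls and adds no support. Mrps18b was called with each library left out in turn. Averaged to one unit per group, the libraries gave calls for 0 members in either lineage, beside 563 of all genes in Isl1Cre and 8 in Nkx2-5Cre. Among the Isl1Cre slopes called in the main fit, only those of Mrpl42 and Mrpl17 were also called in cardiomyocyte-like cells alone. In cardiomyocyte-like cells alone, which leaves out E7.75, 3 members were called over stages in Isl1Cre and 1 in Nkx2-5Cre, beside 442 and 72 of the 10216 genes tested there. One of the 3 was thus not called in the main fit. The Nkx2-5Cre slopes of Mrpl19 and Mrpl52 were then 0.08 and -0.02, and without the E7.75 libraries 0.04 and -0.10.

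The slopes differed between the lineages for 1 member, Mrps6, with 0 in the other direction, where the difference of slopes was higher in Isl1Cre for 1.88% and lower for 0.694% of all genes tested (2.58% in either direction). Mrps6 (chr16:92058270-92112227), a small subunit protein, had 37.8 and 42.2 CPM at E7.75, 49.8 and 59.3 CPM at E8.25, 85.3 and 61.8 CPM at E8.75 and 77.5 CPM at E9.25 in Isl1Cre. In Nkx2-5Cre it had 59.9 and 57.4 CPM, 92.3 and 74.9 CPM, 43.2 and 55.0 CPM, and 58.7 and 49.0 CPM at the same stages. Isl1Cre was below Nkx2-5Cre at E7.75 and E8.25 and above it at E8.75 and E9.25, without overlap at any stage. The slope was 0.67 ± 0.17 in Isl1Cre (adjusted p = 0.0073) and -0.23 ± 0.14 in Nkx2-5Cre (adjusted p = 0.262), and the difference 0.90 ± 0.22 (adjusted p = 0.0362). Of 11 alternatives that omit no single library, the Isl1Cre slope kept its call in 5. It lost it with edgeR (adjusted p = 0.0795) and DESeq2 (0.0635), among others. The difference kept its call in 3 of the 11. By limma it was not called in cells of at least 50000 counts (adjusted p = 0.17) or without the E7.75 libraries (0.117). The call ended with edgeR (adjusted p = 0.209), with DESeq2 (0.152) and without 7 of the 15 libraries (up to 0.119, without Nkx2-5Cre E9.25 replicate 2). Mrps6 shares exons with Slc5a3 on the same strand, a myo-inositol transporter gene at a mean of 183 CPM, whose difference of slopes was -0.42 ± 0.27 (adjusted p = 0.483).

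**Figure D4:**
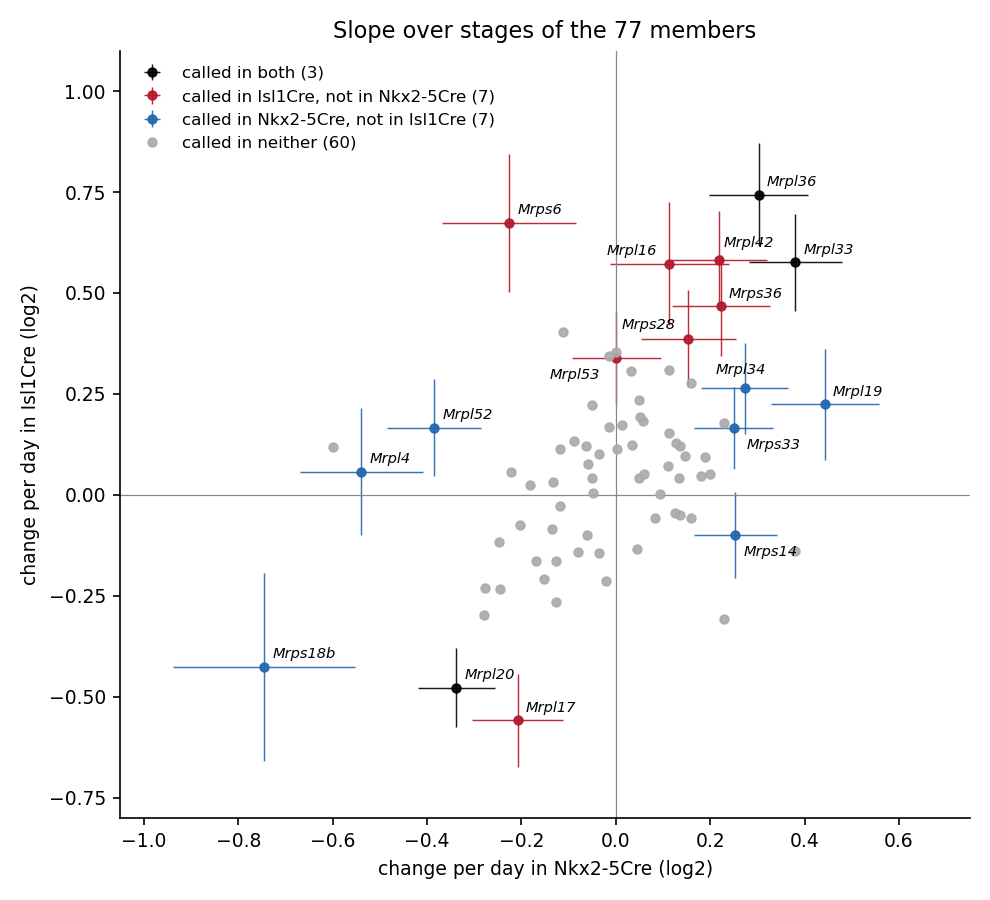
Change per day (log2) of the 77 members in Isl1Cre (vertical) against Nkx2-5Cre (horizontal), with SE bars for members called in at least 1 lineage. Most members lie near the origin; Mrpl36 and Mrpl33 rose and Mrpl20 fell in both lineages, and Mrps6 stands apart at 0.67 in Isl1Cre and -0.23 in Nkx2-5Cre.

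Other genes of the mitochondrial translation pathway were taken from lists of known genes. Beside their counts over stages stand the shares of all genes tested: 13% rose and 10.2% fell in Isl1Cre, and 13.2% rose and 11.6% fell in Nkx2-5Cre. Of the 8 tested ribosomal subunits with other names, such as Dap3 and Ptcd3, 1 rose in each lineage, Chchd1 in Isl1Cre (0.37 ± 0.09, adjusted p = 0.0073) and Oxa1l in Nkx2-5Cre (0.40 ± 0.13, adjusted p = 0.0345), and 0 fell; Oxa1l, which inserts new proteins into the inner membrane, is bound by the ribosome rather than built into it. Of 15 translation factors, 1 rose in each lineage, the elongation factor Gfm1 in Isl1Cre (0.49 ± 0.17, adjusted p = 0.0411) and the initiation factor Mtif2 in Nkx2-5Cre (0.43 ± 0.15, adjusted p = 0.0408), and 0 fell. Of 23 assembly factors, 0 changed over stages in Isl1Cre by limma, with 3 at an unadjusted p under 0.05, and 4 rose in Nkx2-5Cre, among them Ybey, an RNA-processing enzyme (0.87 ± 0.18, adjusted p = 0.0017). Of 19 aminoacyl-tRNA synthetases, limma called 0 in either lineage, with 3 at an unadjusted p under 0.05 in each. Of the 10665 genes tested, 3630 in Isl1Cre and 3936 in Nkx2-5Cre had an unadjusted p under 0.05 over stages.

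Of 18 genes for copying and transcribing mitochondrial DNA, 2 fell and 0 rose in each lineage, a count near what the share of all genes that fell (10.2% in Isl1Cre and 11.6% in Nkx2-5Cre) gives for 18 genes. They include Polg, the DNA polymerase of mitochondria, with slopes of -1.15 ± 0.28 in Isl1Cre (adjusted p = 0.0051) and -1.35 ± 0.23 in Nkx2-5Cre (adjusted p = 0.000326). Of 26 import genes, 1 rose and 2 fell in Isl1Cre, where 13% of all genes rose and 10.2% fell. In Nkx2-5Cre 7 rose and 3 fell, where 13.2% of all genes rose and 11.6% fell. Timm17a, a channel protein of the inner membrane, rose in Isl1Cre (0.58 ± 0.10, adjusted p = 0.000189). Of the 24 complex IV and V subunits, 23 rose in Isl1Cre and 17 in Nkx2-5Cre and 0 fell, with medians of 0.58 and 0.32; Atp5g3, of the ring that turns in ATP synthase, rose by 0.99 ± 0.09 in Isl1Cre. In cardiomyocyte-like cells alone 14 of them were called in Isl1Cre, where 442 of 10216 genes were. In Nkx2-5Cre limma called 0 of them in those cells, where 72 of 10216 genes were called. An unadjusted p under 0.05 was found there for 9 of the 24 and for 1140 of the 10216 genes. Of 15 regulators, 2 rose and 2 fell in each lineage, counts near what the shares of all genes that rose and fell give for 15 genes. Their median slope was -0.10 in Isl1Cre and -0.23 in Nkx2-5Cre. The slopes ran from -0.99 to 2.29 in Isl1Cre and from -1.60 to 1.56 in Nkx2-5Cre. Ppargc1a, a coactivator of mitochondrial biogenesis, rose by 2.29 ± 0.31 in Isl1Cre and 1.56 ± 0.25 in Nkx2-5Cre, with 1.496 and 1.339 CPM at E7.75 and 32.7 CPM at E9.25 in Isl1Cre.

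Within libraries the members' summed level varied between cells, with an SD over cells of 1311 to 2362 CPM. It was higher in cells with more counts, with a correlation to log10 counts of 0.0847 to 0.543 within the 15 libraries, as a description. Pooled over libraries, cells of 20000 to 50000 counts had a mean of 9583 CPM and those of at least 500000 counts a mean of 12852 CPM. Cells were clustered without the members, and the cluster means ran from 9767 to 12303 CPM over 13 clusters. The highest was cluster 1, of 225 cardiomyocyte-like cells led by Nppa and Nppb, genes of natriuretic peptides made in chamber muscle. Beside the other cardiomyocyte-like cells of the same library, its mean was higher in all 9 libraries that hold at least 10 cells of each, by 1.11 to 1.23 times. In these libraries 62.3% to 83.1% of the members were higher in cluster 1. The share was 44.5% to 53.8% over the genes that averaged at least 5 CPM in the compared cells of a library. Cells of cluster 1 also had more counts in 8 of the 9 libraries. Among cells of 100000 to 200000 counts, 4 libraries could be compared, with fewer cells: 7 to 16 of cluster 1 and 8 to 19 others. The ratio was 1.03 to 1.23, with 42.9% to 75.3% of members higher, against 47.5% to 49.7% of genes chosen in the same way. Depth was not otherwise matched, and its part in the difference was not tested.

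**Figure D5:**
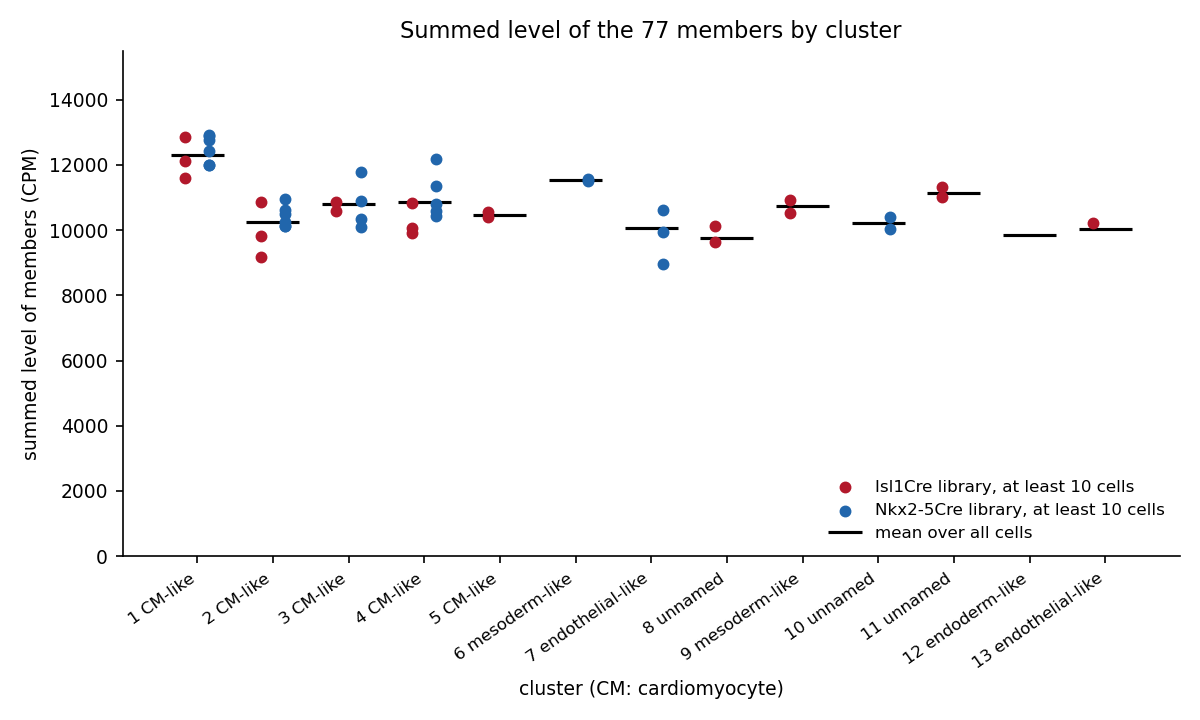
Summed level of the 77 members in CPM by cluster; points are library means with at least 10 cells of a cluster, Isl1Cre left and Nkx2-5Cre right, and bars are means over all cells of the cluster. Cluster 1 is highest at a mean of 12303 CPM, and the other clusters lie between 9767 and 11530 CPM.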

How the data were processed

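Single cells of mouse embryonic hearts were picked by mouth pipette and their messenger RNA was copied with barcoded oligo(dT) primers in a modified Smart-seq2 protocol that reads 3′ ends, per the labels' protocols. The authors deposited CPM per gene and cell; per the submitters' processing notes, the tools were CASAVA 1.8, TopHat2 2.0.12 and HTSeq with mm10. The low values of each cell were whole multiples of the worth of 1 count (tolerance 0.1 of a step), so counts were recovered; whether they are reads or molecules was not settled.

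Cells with at least 2000 counts and 1000 genes were kept, and CPM was averaged per library. Doublets were not searched for, because the cells were picked one by one. No cell names were shared between libraries. Limma 3.58.1 (R 4.3.3) was fitted to TMM-scaled values (scaling factors 0.955 to 1.042), as log2(CPM + 1) of the library mean, over the 10665 genes with at least 5 CPM in 2 libraries, with 1 mean for each of the 8 groups and 7 residual degrees of freedom; the single library of Isl1Cre at E9.25 takes its spread from the other groups. Fold changes on this scale understate low genes. P-values were adjusted by Benjamini-Hochberg with a threshold of 0.05. edgeR 4.0.16 and DESeq2 1.42.0 on recovered counts, other filters, pseudocounts and cell sets, and leaving out libraries were alternatives; the fit was tested on simulated data. Cells were clustered without the members (scanpy 1.11.5, leidenalg 0.10.2, 2000 variable genes, 30 components, 15 neighbours, resolution 1.0) and named from fixed markers. Motifs were searched in RefSeq windows, and gene positions are from GENCODE on GRCm38.

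Genes named are every called member, the 5 members of highest and of lowest mean level, and at most 4 called genes of a list per comparison. The members and lists were chosen with earlier results of these data known.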

Additional observations from a re-analysis of the deposited data

Results flagged for a closer look

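The change per day of Mrps6 differed between the lineages by a test of the difference itself, at 0.90 on the log2 scale (Isl1Cre minus Nkx2-5Cre; limma adjusted p = 0.0362). The slope was 0.67 in Isl1Cre and -0.23 in Nkx2-5Cre. All Isl1Cre libraries lay below those of Nkx2-5Cre at E7.75 and E8.25 and above them at E8.75 and E9.25. The adjusted p over the alternatives that lost the call reached 0.863, with the libraries of a group averaged to one unit.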

How the results depend on the processing

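Of 31 named changes of members, 31 kept their call with a pseudocount of 10, 30 with no further scaling, 28 with DESeq2, 25 in cells of at least 50000 counts, 24 with edgeR, 23 with no filter on low values, 18 with no filter on cells, 7 of 28 without E7.75, 5 of 28 in cardiomyocyte-like cells and 0 of 25 with the libraries of a group averaged. Counts of called members moved by over 1.5 times as follows, with the calls over all genes of the same fit in parentheses. Genes tested numbered 10665, but 17827 with no filter on low values and 10655 with no filter on cells. They numbered 10594 in cells of at least 50000 counts, 10216 in cardiomyocyte-like cells and 10402 without E7.75. In the average over stages (4 called, with 784 of all genes), DESeq2 called 7 (1096), cardiomyocyte-like cells alone 1 (189), averaged libraries 0 (1) and the fit without E7.75 2 (260). At E7.75 (3, with 760 of all genes), no further scaling gave 5 (771). At E8.25 (2, with 545 of all genes), the counts were 0 (303) with no filter on low values, 1 (606) with edgeR and 0 (357) with no filter on cells. They were 1 (261) in cardiomyocyte-like cells, 4 (721) in cells of at least 50000 counts and 1 (475) without E7.75. At E8.75 (1, with 34 of all genes), they were 2 with a pseudocount of 10 (55), with no further scaling (37) and with DESeq2 (120). They were 0 with no filter on low values (29), in cardiomyocyte-like cells (26) and without E7.75 (33). At E9.25 (0, with 104 of all genes), DESeq2 called 1 (232). Of all genes, 36 were higher and 77 lower with no further scaling, against 45 and 59. For the slope in Isl1Cre (10, with 2479 of all genes), cardiomyocyte-like cells gave 3 (442), averaged libraries 0 (563) and the fit without E7.75 4 (820). For the slope in Nkx2-5Cre (10, with 2639 of all genes), DESeq2 called 17 (3047), no filter on cells 5 (2153), cardiomyocyte-like cells 1 (72), averaged libraries 0 (8) and the fit without E7.75 1 (69). For the difference of slopes (1, with 275 of all genes), the count was 0 with no filter on low values (262), with edgeR (247) and with no filter on cells (190). It was also 0 in cardiomyocyte-like cells (85) and with averaged libraries (0), and 2 in cells of at least 50000 counts (296), with Mrps6 not among these 2. The cause was not tested, except that averaging leaves 8 values and the cardiomyocyte-like and later-stage fits leave out E7.75. The Nkx2-5Cre slope of Mrpl36 turned to -0.25 in cardiomyocyte-like cells (limma adjusted p = 0.645) and to -0.29 without E7.75 (adjusted p = 0.547). Single stages could not be fitted with averaged libraries.

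Leaving out each library in turn gave 2 to 5 called members in the average over stages, 1 to 5 at E7.75, then 0 to 3 at E8.25, then 0 to 2 at E8.75, then 0 to 0 at E9.25, 8 to 10 for the slope in Isl1Cre, 5 to 11 for the slope in Nkx2-5Cre and 0 to 4 for the difference of slopes. The average over stages had 2 calls without Isl1Cre E7.75 replicate 1, Isl1Cre E8.25 replicate 2 or Nkx2-5Cre E8.75 replicate 1. For the difference of slopes the count of 4 came without Nkx2-5Cre E8.25 replicate 2, and the count of 5 at E7.75 without either Nkx2-5Cre library of E8.25. The Nkx2-5Cre slope had 5 calls without either Nkx2-5Cre E7.75 library or without Nkx2-5Cre E9.25 replicate 2. Calls over all genes also rose and fell between these fits, so the counts of members are no result about the members alone. The difference of the summed level, -456 CPM, ran from -609 to -302 CPM over the same omissions and kept its sign in every alternative run. Cells of at least 50000 counts and, for the summed level, the omissions were chosen after seeing the data.

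Replicate numbers did not pair the libraries: over 21 pairs of groups the correlation of deviations was -0.0315 to 0.166, with 1 over 0.1. With the replicate number as a block, 5 members were called in the average over stages, 4, 2, 1 and 0 from the first to the last stage, 9 for the slope in Isl1Cre, 11 for the slope in Nkx2-5Cre and 1 for the difference of slopes. Over all 10665 genes the same fits called 883, then 821, 572, 42 and 168, then 2445, 2711 and 260.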
